A study of Mus musculus with 14 samples.

Results

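Chemokine and homing receptors, the G protein-coupled receptors that steer lymphocytes between blood, lymphoid organs and inflamed tissue, were followed in regulatory T cells (Tregs) taken from tumors and spleens. The 8 genes Ccr2, Ccr4, Ccr7, Ccr8, Cxcr3, Cxcr4, Cxcr6 and S1pr1 are trafficking receptors, listed with earlier results of these data known. These genes were found by their NCBI Gene numbers among the 27179 genes of the count table. Tregs, CD4 T cells defined by the transcription factor Foxp3 that hold back other immune cells, had been isolated by flow sorting on a yellow fluorescent reporter tied to Foxp3. They came from mice bearing MC38 colon carcinoma in the flank, examined at the tumor endpoint, and their polyadenylated RNA was sequenced after an ultra-low-input preparation. The tumor Flox-labelled group had 3 libraries and the tumor WT-labelled group 4, and the spleen Flox-labelled group had 3 libraries and the spleen WT-labelled group 4. The Flox strain is labelled B6.IL23RFlox FoxP3Cre-YFP and the WT strain B6.IL23RWT FoxP3Cre-YFP. All 14 libraries thus came from mice with the Foxp3-driven Cre recombinase and reporter, and only the Flox-labelled mice carried the Il23r allele that Cre is meant to delete, in cells that express Foxp3. The labels give neither the age of the mice nor whether each library was a separate animal, so p-values measure the spread between these libraries.

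Chemokine receptors bind small secreted chemokines and couple to inhibitory G proteins, which turns a gradient of chemokine into directed movement. Receptors such as Ccr2, Ccr4, Ccr8, Cxcr3 and Cxcr6 answer to chemokines made in inflamed tissue, Ccr7 takes lymphocytes into lymph nodes, and S1pr1 lets them leave lymphoid organs for the blood. Naive-like Tregs that recirculate are known for Ccr7 and S1pr1, and effector Tregs of tissues and tumors for Ccr8 and the entry receptors.

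Total counts per library ran from 4859099 to 10333892. The TMM scaling factors, which correct for differences in RNA composition, were 0.744 to 0.981 in tumor libraries and 1.03 to 1.26 in spleen libraries. Foxp3 itself differed between tumor and spleen by -0.13 ± 0.29 on the log2 scale (SE, adjusted p = 0.784), and the summed level of 9 Treg markers was 5651 to 10150 CPM (counts scaled to a library total of 1000000) in tumor and 2823 to 4341 CPM in spleen. Il23r had 17 counts in the 3 tumor Flox-labelled libraries and 2 in the 4 tumor WT-labelled libraries, with 10 in the spleen Flox-labelled and 2 in the spleen WT-labelled libraries. The labels do not name the exons that Cre removes, and the tumor counts go against the label, so the libraries are named by label throughout. In bulk RNA, fewer cells of a type and less RNA per cell cannot be told apart.

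The promoters of Ccr2, Ccr8, Cxcr3 and Cxcr6 are printed because these 4 receptors passed the test as higher in tumor. Each run spans 250 bases before to 50 after an annotated start (RefSeq, GRCm38.p6), and the capitals mark a GATA, KLF or RUNX word. The Ccr2 window lies wholly inside the gene (chr9:124101918-124109140), so it does not cover the bases before the gene's outer end.
Ccr2, chr9:124101933-124102232, plus strand: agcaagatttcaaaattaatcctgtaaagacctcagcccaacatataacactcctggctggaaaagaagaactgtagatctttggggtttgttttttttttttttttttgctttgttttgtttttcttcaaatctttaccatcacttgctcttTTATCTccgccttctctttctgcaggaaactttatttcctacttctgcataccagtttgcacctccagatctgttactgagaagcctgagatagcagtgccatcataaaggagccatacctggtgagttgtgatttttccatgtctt
Ccr8, chr9:120091883-120092182, plus strand: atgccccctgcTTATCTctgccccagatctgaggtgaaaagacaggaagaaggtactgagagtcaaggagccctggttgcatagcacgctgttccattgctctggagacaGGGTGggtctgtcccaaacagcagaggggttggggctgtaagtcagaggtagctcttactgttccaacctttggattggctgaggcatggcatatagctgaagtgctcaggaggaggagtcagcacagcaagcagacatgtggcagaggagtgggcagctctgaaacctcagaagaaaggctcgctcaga
Cxcr3, chrX:101734098-101734397, minus strand: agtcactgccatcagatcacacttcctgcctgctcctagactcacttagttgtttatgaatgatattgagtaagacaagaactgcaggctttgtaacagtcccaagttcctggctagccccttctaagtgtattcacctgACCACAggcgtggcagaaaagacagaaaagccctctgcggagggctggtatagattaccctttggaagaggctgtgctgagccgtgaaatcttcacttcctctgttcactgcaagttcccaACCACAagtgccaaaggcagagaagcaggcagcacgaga
Cxcr6, chr9:123806227-123806526, plus strand: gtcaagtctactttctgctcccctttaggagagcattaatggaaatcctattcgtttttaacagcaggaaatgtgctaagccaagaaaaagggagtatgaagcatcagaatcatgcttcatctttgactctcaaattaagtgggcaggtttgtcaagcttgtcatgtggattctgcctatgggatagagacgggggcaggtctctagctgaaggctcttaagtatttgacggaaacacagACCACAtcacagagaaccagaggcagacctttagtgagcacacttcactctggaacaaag
RefSeq promoters were matched for 6 of the 8 genes, and Ccr7 and S1pr1 had no entry in the table used. Like that of Ccr2, the Ccr4 window (chr9:114496495-114496794, minus strand) lies inside its gene (chr9:114490316-114505476), at an internal start. The 7 words searched on both strands were AP-1 (TGANTCA), STAT (TTCNNNGAA), RUNX (TGTGGT), T-box (AGGTGT), KLF (CACCC), GATA-family (AGATAA) and E-box (CACGTG), none of which contains another. The RUNX word lay in the promoters of Cxcr3, at positions -110 and 12 from the start, and of Cxcr6, at -10, against 16.8% of all 32851 promoters. The GATA word lay in those of Ccr2, at -97, and Ccr8, at -239, against 11.2% of all promoters. The KLF word lay in 3 of 6, Ccr4, Ccr8 and Cxcr4, against 57.5%, and the AP-1 word in 1 of 6, Ccr4, against 7.81%. The STAT, T-box and E-box words were not in these 6 windows, against 8.3%, 13.7% and 7.15% of all promoters. A match of letters is a description of sequence and not a binding site.

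Levels were compared between receptors as CPM per kilobase of merged exons. In tumor Tregs Ccr2, the receptor for Ccl2 and Ccl7, had the highest level of the 8 under both labels, and in spleen Tregs S1pr1 did. Ccr2 averaged 421.5 ± 169.8 CPM per kilobase in the tumor Flox-labelled libraries (SD, n = 3) and 545.9 ± 227 in the tumor WT-labelled libraries (SD, n = 4). That level placed Ccr2 at rank 58 of 14644 genes with a count and a length in the Flox-labelled tumor group and at rank 47 of 14870 in the WT-labelled tumor group. Ccr2 supplied 66.5 ± 12.2% of the summed level of the 8 receptors in tumor Flox-labelled libraries and 69.0 ± 8.19% in tumor WT-labelled libraries. In spleen its share was 22.6 ± 0.706% in Flox-labelled libraries and 4.76 ± 5.03% in WT-labelled libraries.

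Below Ccr2, the order in both tumor groups went on with Cxcr4, the receptor for Cxcl12, then Ccr8 and Cxcr6. Cxcr4 averaged 86.3 ± 51.1 CPM per kilobase in tumor Flox-labelled and 81.1 ± 45.9 in tumor WT-labelled libraries. The ranges of Ccr2 and Cxcr4 did not overlap in either tumor group, nor did those of Cxcr4 and Ccr8, while Ccr8 and Cxcr6 overlapped. S1pr1 was last of the 8 in the tumor Flox-labelled libraries, at 3.11 ± 0.902 CPM per kilobase, and the fifth in the tumor WT-labelled libraries, at 32.4 ± 37.8. In spleen S1pr1 averaged 51.6 ± 24.4 CPM per kilobase in Flox-labelled and 49.2 ± 23.1 in WT-labelled libraries, ranks 566 of 13913 and 555 of 14722 genes. Cxcr4 stood close below it in the spleen WT-labelled libraries, at 44.6 ± 16.1, and the ranges of these neighbours overlapped. In the spleen Flox-labelled libraries every neighbour in the order overlapped the next, and Ccr8 was last at 3.39 ± 2.56 CPM per kilobase. Ccr4 was last in both WT-labelled groups, at 1.07 ± 0.449 in tumor and 2.61 ± 1.36 in spleen.

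**Figure D1:**
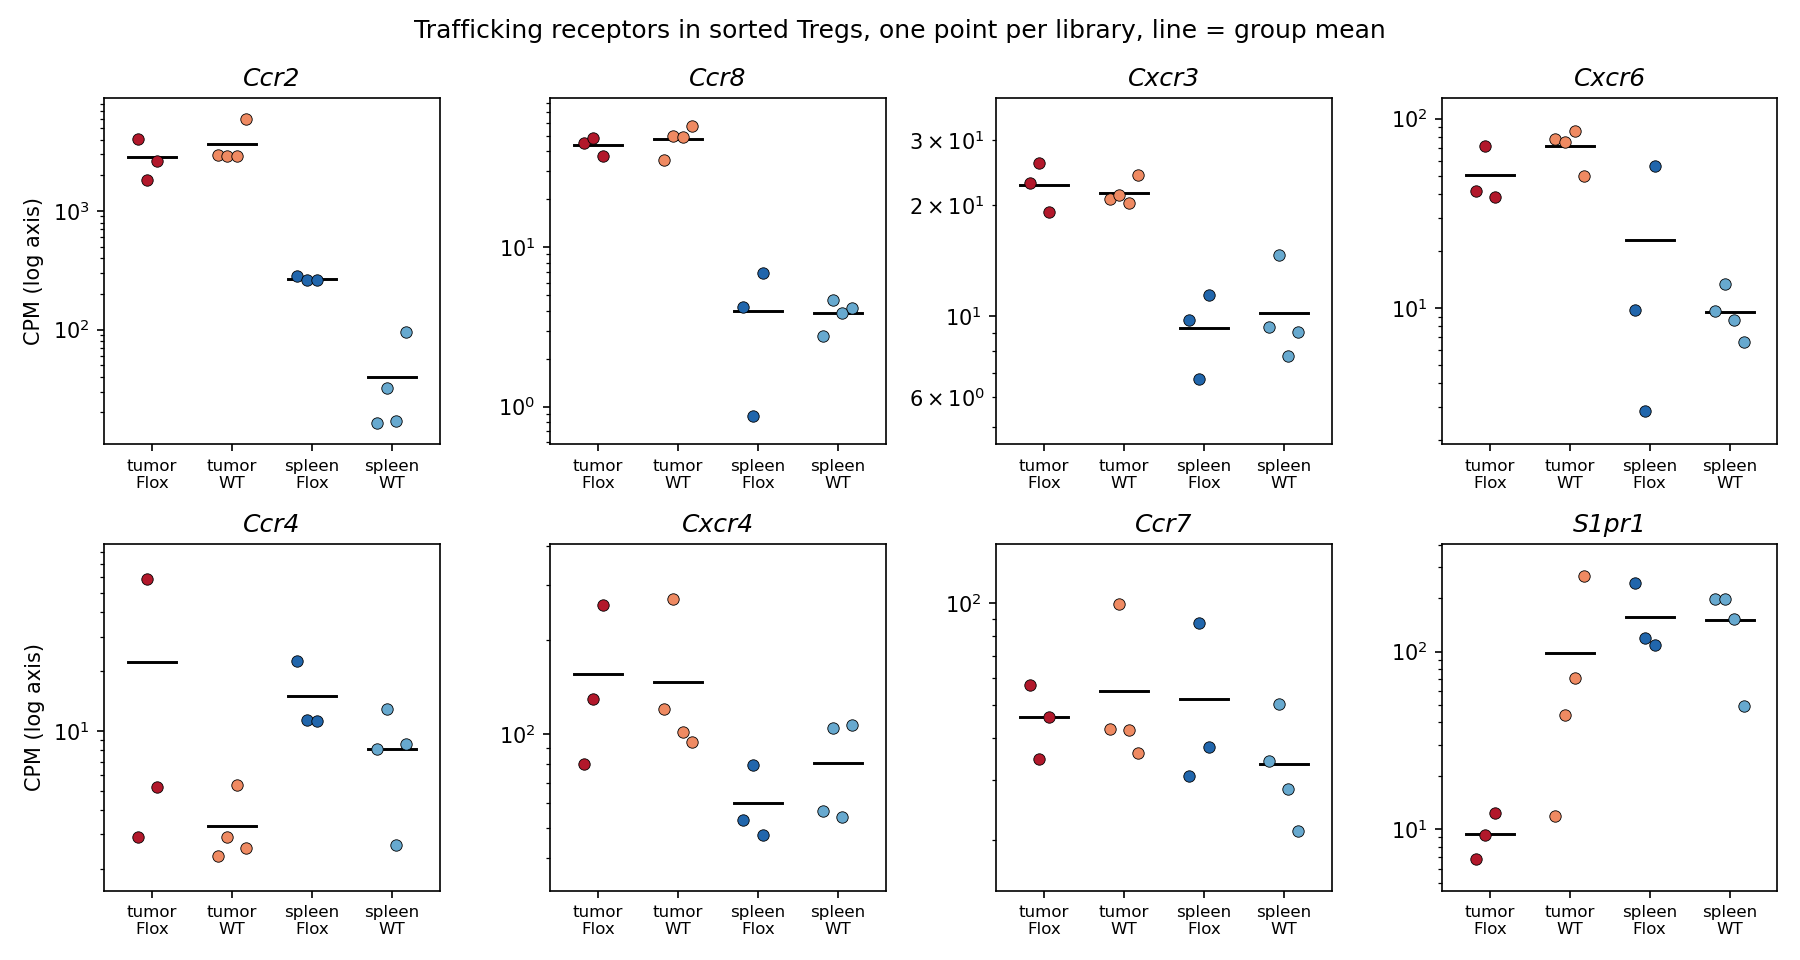
CPM of each of the 8 receptors on a log axis, with 1 point per library and a line at the group mean (n = 3 Flox-labelled and 4 WT-labelled libraries per tissue). Ccr2, Ccr8 and Cxcr3 lie higher in all 7 tumor libraries than in any spleen library, and S1pr1 spans 11.9 to 268 CPM in the 4 tumor WT-labelled libraries.

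The first comparison set tumor against spleen Tregs over all 14 libraries, with the genotype label as a covariate. Entry receptors other than Ccr4 were higher in tumor: Ccr2, Ccr8, Cxcr6 and Cxcr3 rose by 37.5-fold, 11.7-fold, 4.46-fold and 2.25-fold. The lymph node receptor Ccr7, the egress receptor S1pr1 and Cxcr4 did not pass. Nor did the entry receptor Ccr4, whose log2 difference was -0.49. The 4 of 8 receptors that passed, all higher, stand beside 22.5% of 12008 genes that passed in edgeR's quasi-likelihood test with Benjamini-Hochberg adjustment at 0.05, with 12.3% higher in tumor and 10.2% lower. The 8 had a median log2 difference of 1.13, against 0.03 over all genes tested. With library totals in place of TMM scaling the median of all genes was -0.33, with 1047 genes higher and 1857 lower against 1476 higher and 1225 lower with TMM. In 3 of 8 receptors every tumor library lay above every spleen library, against 5.91% of genes. Because the 8 were listed with earlier results of these data known, these shares are a description.

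Ccr2 (chr9:124101918-124109140, plus strand) recruits monocytes, and T cells too, to tissue that makes Ccl2. Its level in tumor was 4083, 1812 and 2653 CPM in Flox-labelled libraries and 2946, 2937, 2887 and 5991 CPM in WT-labelled libraries. In spleen it was 283, 264 and 261 CPM in Flox-labelled libraries and 16.2, 32.0, 16.9 and 95.7 CPM in WT-labelled libraries. Every tumor library was above every spleen library, with tumor WT-labelled replicate 4 well above the other tumor libraries, and the labels did not overlap in spleen. The log2 difference was 5.23 ± 0.70 (SE; adjusted p = 0.000214; fold 37.5, 95% interval 13.2 to 106). Of the 50-base words in its exons, 1.91% also occurred in other genes, and how such reads were assigned is not stated in the labels.

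Because monocytes and macrophages also use Ccr2, their markers were read in the same libraries. The 12 markers summed to 102 to 289 CPM in tumor Flox-labelled, 35.7 to 196 CPM in tumor WT-labelled, 8.33 to 20.1 CPM in spleen Flox-labelled and 19.2 to 254 CPM in spleen WT-labelled libraries. Adgre1 alone gave 143 CPM of the 196 CPM and 194 CPM of the 254 CPM, both in replicate 2. Of 11 tested, 5 passed as higher in tumor, including Fn1 and Cd14, while Csf1r, Lyz2 and Cd68 did not pass. The defining markers were above 0 in every group, other than Fcgr1 in the spleen Flox-labelled libraries. The part of macrophage and monocyte RNA in the Ccr2 level was not tested.

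Ccr8 (chr9:120092133-120094906, plus strand), the receptor for Ccl1 and a marker of tumor Tregs, rose, with a coefficient of variation of 16.6% among tumor libraries and a wider relative spread in spleen. It stood at 45.1, 48.6 and 37.4 CPM in tumor Flox-labelled libraries and at 35.4, 49.8, 49.4 and 57.4 CPM in tumor WT-labelled libraries. In spleen it lay at 4.21, 0.871 and 6.87 CPM in the Flox-labelled and at 2.76, 4.68, 3.85 and 4.14 CPM in the WT-labelled libraries. The lowest tumor library was above the highest spleen library, and within each tissue the labels overlapped. Tumor minus spleen came to 3.55 ± 0.42 on the log2 scale (SE; adjusted p = 7.34e-05; fold 11.7, 95% interval 6.32 to 21.8).

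Cxcr3 (chrX:101731535-101734147, minus strand), the receptor for the interferon-induced chemokines Cxcl9 and Cxcl10, differed by less. Its tumor levels were 23.0, 26.0 and 19.2 CPM in the Flox-labelled and 20.7, 21.3, 20.3 and 24.2 CPM in the WT-labelled libraries. Its spleen levels were 9.72, 6.72 and 11.4 CPM in the Flox-labelled and 9.31, 14.6, 7.79 and 9.02 CPM in the WT-labelled libraries. Tumor and spleen did not overlap, and the spread among tumor libraries was the smallest of the 8, with a coefficient of variation of 10.95%. Cxcr3 thus differed by 1.17 ± 0.26 on the log2 scale (SE; adjusted p = 0.00613). With library totals in place of TMM scaling it was 0.81 and no longer passed (adjusted p = 0.0579).

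Cxcr6 (chr9:123806477-123811754, plus strand), the receptor for Cxcl16, overlapped between the tissues in a single spleen library. Tumor values were 41.6, 71.3 and 38.4 CPM in the Flox-labelled and 78.0, 75.0, 85.5 and 49.5 CPM in the WT-labelled libraries. Spleen values were 9.72, 2.86 and 56.1 CPM in the Flox-labelled and 9.62, 13.3, 8.68 and 6.58 CPM in the WT-labelled libraries. The spleen Flox-labelled replicate 3 lay inside the tumor range, and the other 6 spleen libraries lay below it. On the log2 scale tumor minus spleen was 2.16 ± 0.605 (SE; adjusted p = 0.0202), and it was 2.93 without spleen Flox-labelled replicate 3. Without both WT-labelled libraries numbered 2, which held reads of the Y-linked Ddx3y beside Xist, it was 2.07 and did not pass (adjusted p = 0.0601). The gene lies within Fyco1 on the opposite strand, with no shared exon, and whether counting used strand is not stated in the labels.

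Of the 4 receptors that did not pass, Cxcr4 (chr1:128588199-128592299, minus strand) came closest. It had 80.1, 129 and 259 CPM in tumor Flox-labelled and 120.2, 269.9, 102 and 94.5 CPM in tumor WT-labelled libraries. In spleen it had 53.1, 79.6 and 47.4 CPM in the Flox-labelled and 56.9, 105, 54.3 and 107 CPM in the WT-labelled libraries. Some spleen WT-labelled libraries were as high as the lower tumor libraries, and the log2 difference was 1.08 ± 0.38 (SE; adjusted p = 0.0534). DESeq2 gave 1.11 (adjusted p = 0.0102), and 6 of the 22 alternatives run passed.

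S1pr1 (chr3:115710433-115715055, minus strand), the receptor for sphingosine phosphate that Cd69 pulls from the cell surface, varied widely in tumor. It was at 6.79, 9.31 and 12.3 CPM in tumor Flox-labelled and at 11.9, 44.1, 71.3 and 268 CPM in tumor WT-labelled libraries. In spleen it was at 243, 120 and 109 CPM in the Flox-labelled and at 199, 199, 152 and 49.4 CPM in the WT-labelled libraries. All Flox-labelled tumor libraries were low and those labelled WT spread 22.5-fold, with replicate 4 above every spleen library. The log2 difference over 14 libraries was -2.01 ± 0.835 (SE; adjusted p = 0.100). Without tumor WT-labelled replicate 4 it was -2.82 and passed (adjusted p = 0.00684). That replicate also had the highest tumor levels of Klf2, the factor that drives S1pr1, at 63.3 CPM against 10.1 to 29.5 CPM in the other 6. Its sum of 11 handling genes was 2839 CPM, against 1085 to 2462 CPM in the other 6, with the next highest in WT-labelled replicate 1, which had the lowest S1pr1 of its group. Its B cell marker sum, 310 CPM, and its fibroblast and endothelial sum, 293 CPM, were also the highest in tumor. Pecam1 alone gave 241 CPM of the latter sum, and it was at 54.4 to 164 CPM in spleen WT-labelled libraries. The highest tumor levels of Col3a1 and Dcn, 93.2 and 68.1 CPM, were in other libraries. The part of Klf2, of handling and of such other cells in the S1pr1 level was not tested.

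Ccr7 (chr11:99144199-99155077, minus strand), which guides cells along Ccl19 and Ccl21 into lymph nodes, was alike in range in both tissues. It had 57.4, 34.6 and 46.2 CPM in tumor Flox-labelled and 42.6, 99.7, 42.2 and 36.2 CPM in tumor WT-labelled libraries. In spleen it had 30.9, 87.4 and 37.7 CPM in the Flox-labelled and 34.2, 50.5, 28.3 and 21.2 CPM in the WT-labelled libraries. The groups overlapped, 1 library stood high in each of 2 groups, and the log2 difference was 0.34 (95% interval -0.51 to 1.18; adjusted p = 0.583).

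Ccr4 (chr9:114490316-114505476, minus strand), the receptor for Ccl17 and Ccl22, was low in nearly all libraries. It had 2.93, 58.5 and 5.18 CPM in tumor Flox-labelled and 2.35, 2.90, 5.35 and 2.58 CPM in tumor WT-labelled libraries. In spleen it had 22.5, 11.3 and 11.2 CPM in the Flox-labelled and 8.09, 12.9, 2.66 and 8.65 CPM in the WT-labelled libraries. A single tumor library, Flox-labelled replicate 2, was above all others, and the tissues overlapped. The log2 difference was -0.49 ± 0.665 (SE; adjusted p = 0.639), and without that library it was -1.52 and passed (adjusted p = 0.0222).

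**Figure D2:**
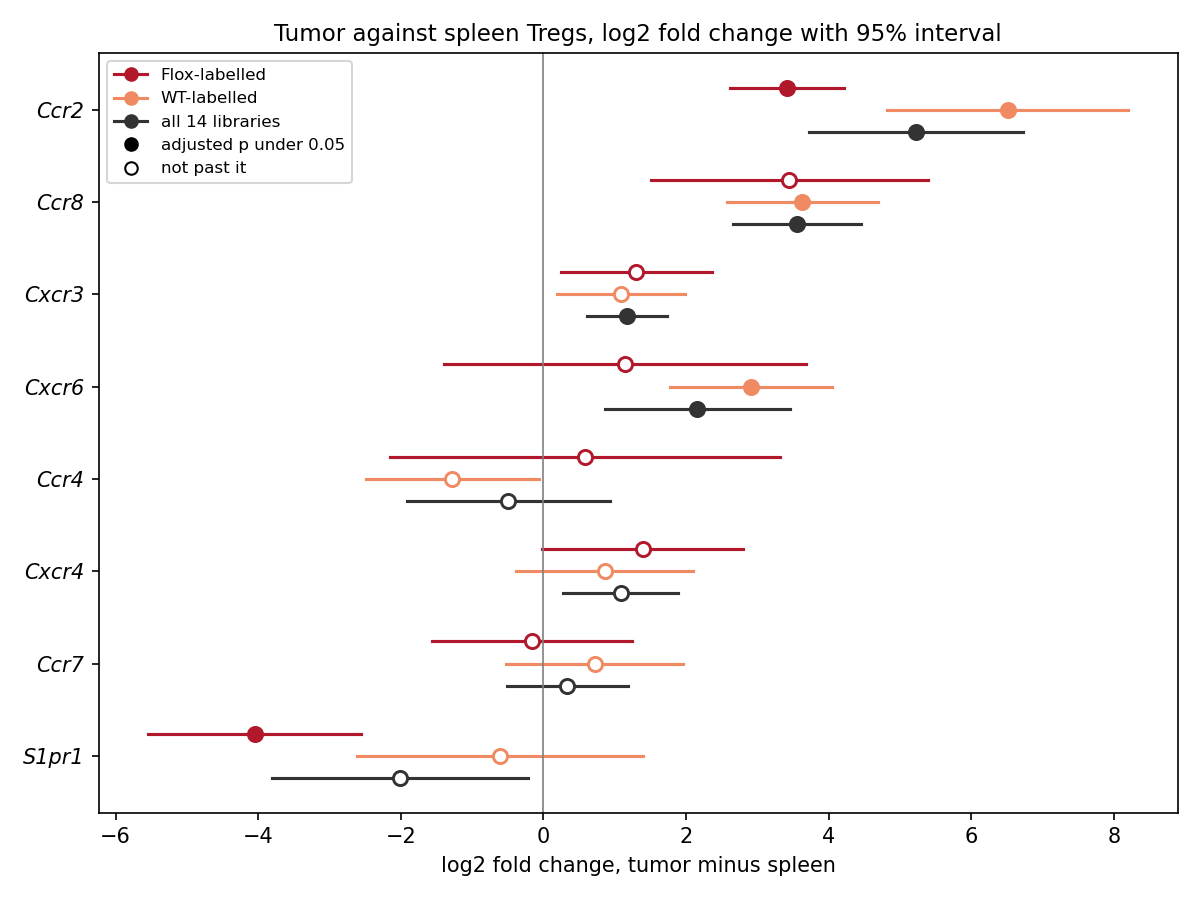
Log2 fold change of each receptor, tumor minus spleen, with its 95% interval, in Flox-labelled libraries (n = 3 and 3), WT-labelled libraries (n = 4 and 4) and all 14 libraries. Filled points passed an adjusted p of 0.05; Ccr2 passed in all 3 fits, and S1pr1, at -4.05, passed in the Flox-labelled libraries.

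Within a label the same question was asked with fewer libraries. In Flox-labelled Tregs 2 of 8 receptors passed, Ccr2 higher and S1pr1 lower, beside 7.87% of 10760 genes, 4.15% higher and 3.72% lower. In WT-labelled Tregs 3 of 8 passed, Ccr2, Ccr8 and Cxcr6, all higher, beside 7.1% of 10560 genes, 3.9% of the tested genes being higher. Ccr2 differed by 3.41 ± 0.335 on the log2 scale in Flox-labelled libraries (SE; adjusted p = 0.0145) and by 6.51 ± 0.749 in WT-labelled libraries (adjusted p = 0.0043). Its tumor levels overlapped between the labels, and its spleen levels did not. Without spleen WT-labelled replicate 4, whose Ccr2 was the highest of that group, the WT-labelled difference was 7.40.

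S1pr1 fell by 4.05 in the Flox-labelled libraries (SE 0.625; adjusted p = 0.0220; 16.6-fold lower, 95% interval 5.87 to 46.7), and its difference in the WT-labelled libraries was -0.61 ± 0.889 (adjusted p = 0.695). In the Flox-labelled comparison the S1pr1 call was lost whichever of the 6 libraries was left out (adjusted p = 0.0503 to 0.0663), and the Ccr2 call was lost without any 1 of the 3 spleen libraries (adjusted p = 0.0572 to 0.0647). The number of genes that passed was then 0 to 472, against 847 with all 6 libraries. Ccr8 differed by 3.45 ± 0.811 in Flox-labelled libraries (adjusted p = 0.0518) and by 3.63 ± 0.469 in WT-labelled libraries (adjusted p = 0.00564). Cxcr6 differed by 1.15 ± 1.06 in Flox-labelled libraries (adjusted p = 0.521), or 2.98 without spleen replicate 3, and by 2.92 ± 0.502 in WT-labelled libraries (adjusted p = 0.0134). The WT-labelled calls of Ccr2, Ccr8 and Cxcr6 held without each of the 8 libraries in turn, while the number of passing genes there was 373, without spleen replicate 3, to 658, against 750. Tumor libraries lay above spleen libraries without overlap in 4 of 8 receptors under each label: Ccr2, Ccr8, Cxcr3 and Cxcr4 in Flox-labelled libraries, beside 16.9% of genes, and Ccr2, Ccr8, Cxcr3 and Cxcr6 in WT-labelled libraries, beside 9.61%. S1pr1 lay lower without overlap in Flox-labelled libraries, beside 16.1% of genes.

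The balance of entry and recirculation receptors was described per library as the mean log2 CPM of Ccr2, Ccr4, Ccr8, Cxcr3 and Cxcr6 minus that of Ccr7 and S1pr1. In tumor it was 1.49, 2.45 and 1.13 in Flox-labelled libraries and 1.24, -0.16, 0.29 and -0.60 in WT-labelled libraries. In spleen it was -2.16, -3.46 and -1.27 in Flox-labelled libraries and -3.33, -2.92, -3.29 and -1.47 in WT-labelled libraries. Every tumor library lay above every spleen library on this scale, which holds the 4 receptors that passed and so adds no separate result. Group means were 1.69 ± 0.683 for tumor Flox-labelled, 0.19 ± 0.785 for tumor WT-labelled, -2.29 ± 1.10 for spleen Flox-labelled and -2.75 ± 0.877 for spleen WT-labelled libraries. Between the tumor groups, the ranges overlapped in a single pair, with WT-labelled replicate 1 above Flox-labelled replicate 3.

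**Figure D3:**
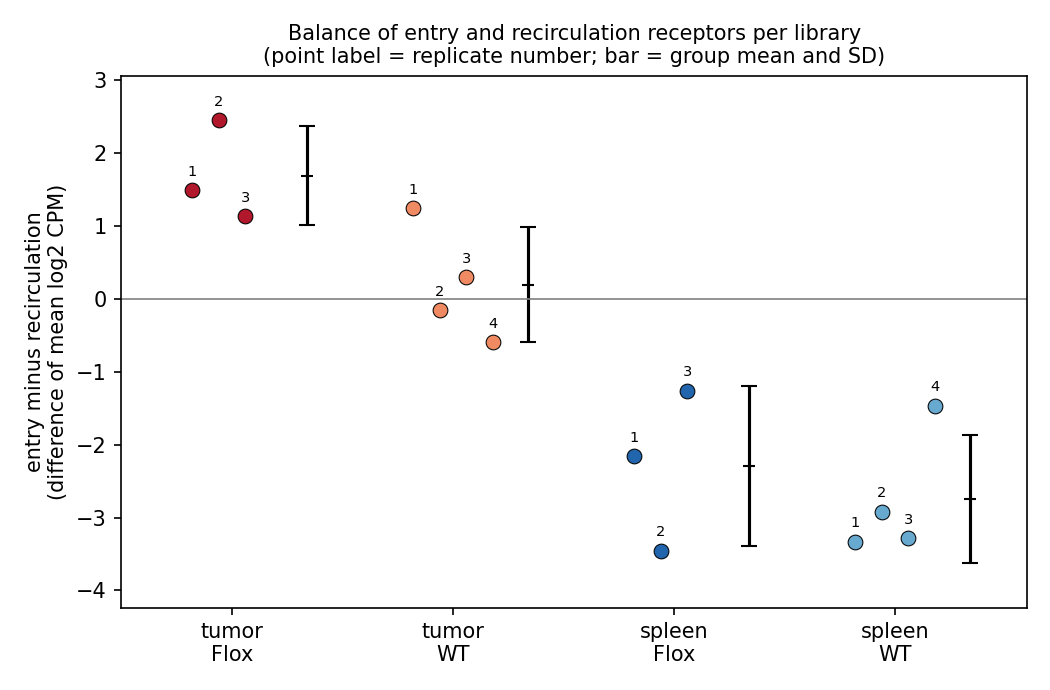
Mean log2 CPM of 5 entry receptors minus that of Ccr7 and S1pr1, 1 point per library with its replicate number, and bars for the group mean and SD. The 7 tumor libraries lie between -0.60 and 2.45 and the 7 spleen libraries between -3.46 and -1.27.

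The study's own comparison was Flox against WT within a tissue. No receptor passed in either tissue: 0 of 8 in tumor, beside 0% of 10777 genes, and 0 of 8 in spleen, beside 0% of 10935 genes. S1pr1 and Ccr4 in tumor and Ccr2 in spleen had an unadjusted p under 0.05. That is 2 of 8 beside 8.08% of genes in tumor, where 871 genes reached it, and 1 of 8 beside 6.86% in spleen, where 750 did. DESeq2 passed 266 genes in tumor and 124 in spleen, and limma voom 1 and 0.

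In tumor, the S1pr1 values given above averaged 9.46 ± 2.75 CPM in the Flox-labelled and 98.8 ± 115 CPM in the WT-labelled libraries (SD, n = 3 and 4). The highest Flox-labelled library, at 12.3 CPM, was just above the lowest WT-labelled one, at 11.9 CPM. B cell markers moved with S1pr1 here, with sums of 49.5 to 55.0 CPM in tumor Flox-labelled libraries and 62.1, 135, 154 and 310 CPM in tumor WT-labelled replicates 1 to 4. Their part in the S1pr1 difference was not tested. On the log2 scale the labels differed by -3.38 ± 1.12 (SE; 95% interval -5.99 to -0.77; adjusted p = 0.584), with DESeq2 an adjusted p of 0.0144. Without WT-labelled replicate 4 it was -2.20. Ccr4 differed by 2.75 ± 1.04 (adjusted p = 0.584), and by 0.24 without Flox-labelled replicate 2, which had 58.5 CPM. The other 6 receptors had log2 differences from -0.52 for Cxcr6 to 0.07 for Cxcr4 and Cxcr3. For Ccr8 the 95% interval of -1.31 to 1.02 leaves room for a change of about 2.48-fold in the downward direction.

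In spleen, Ccr2 averaged 269 ± 11.8 CPM in the Flox-labelled and 40.2 ± 37.7 CPM in the WT-labelled libraries (SD, n = 3 and 4). All 3 Flox-labelled libraries lay above the 4 WT-labelled libraries, and it was the only receptor of the 8 whose labels did not overlap in spleen, beside 2.75% of genes that were higher without overlap. The log2 difference was 2.74 ± 0.674 (SE; fold 6.69, 95% interval 2.27 to 19.7; adjusted p = 0.674), with DESeq2 an adjusted p of 0.0283. Macrophage markers summed to 8.33 to 20.1 CPM in Flox-labelled and 66.5, 254, 19.2 and 54.9 CPM in WT-labelled spleen libraries. Adgre1 alone gave 194 CPM of the 254 CPM. B cell markers also differed, with sums of 445 to 580 CPM in Flox-labelled and 740 to 2124 CPM in WT-labelled spleen libraries. The part of either cell type in the Ccr2 difference was not tested. Among the other 7, the log2 differences ran from -0.43 for Cxcr4 to 1.26 for Cxcr6. The Cxcr6 difference was -0.57 without Flox-labelled replicate 3.

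Sex-linked reads followed the labels. Xist was at 1.53 to 3.34 CPM in tumor Flox-labelled and 56.7 to 529 CPM in tumor WT-labelled libraries, and at 0.502 to 0.871 CPM in spleen Flox-labelled and 68.6 to 406 CPM in spleen WT-labelled libraries. The Y-linked Ddx3y was at 327.5 to 657 CPM in tumor Flox-labelled and 0 to 127 CPM in tumor WT-labelled libraries, and at 281 to 332 CPM in spleen Flox-labelled and 0.296 to 29.2 CPM in spleen WT-labelled libraries. The genotype label and the sex-linked reads cannot be told apart in these receptor comparisons.

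The difference of the tissue contrasts, tumor minus spleen in Flox-labelled less the same in WT-labelled libraries, asks whether the receptors changed unequally with label. None of 8 passed, beside 0% of 12008 genes, with edgeR, where 1296 genes had an unadjusted p under 0.05; DESeq2 passed 157 and limma voom 0. Ccr2 and S1pr1 were below that p, 2 of 8 beside 10.8% of genes. The term was -3.12 ± 0.801 for Ccr2 (adjusted p = 0.425), with DESeq2 an adjusted p of 0.0458. It was -3.45 ± 1.20 for S1pr1 (adjusted p = 0.425), and -2.23 without tumor WT-labelled replicate 4.

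**Figure D4:**
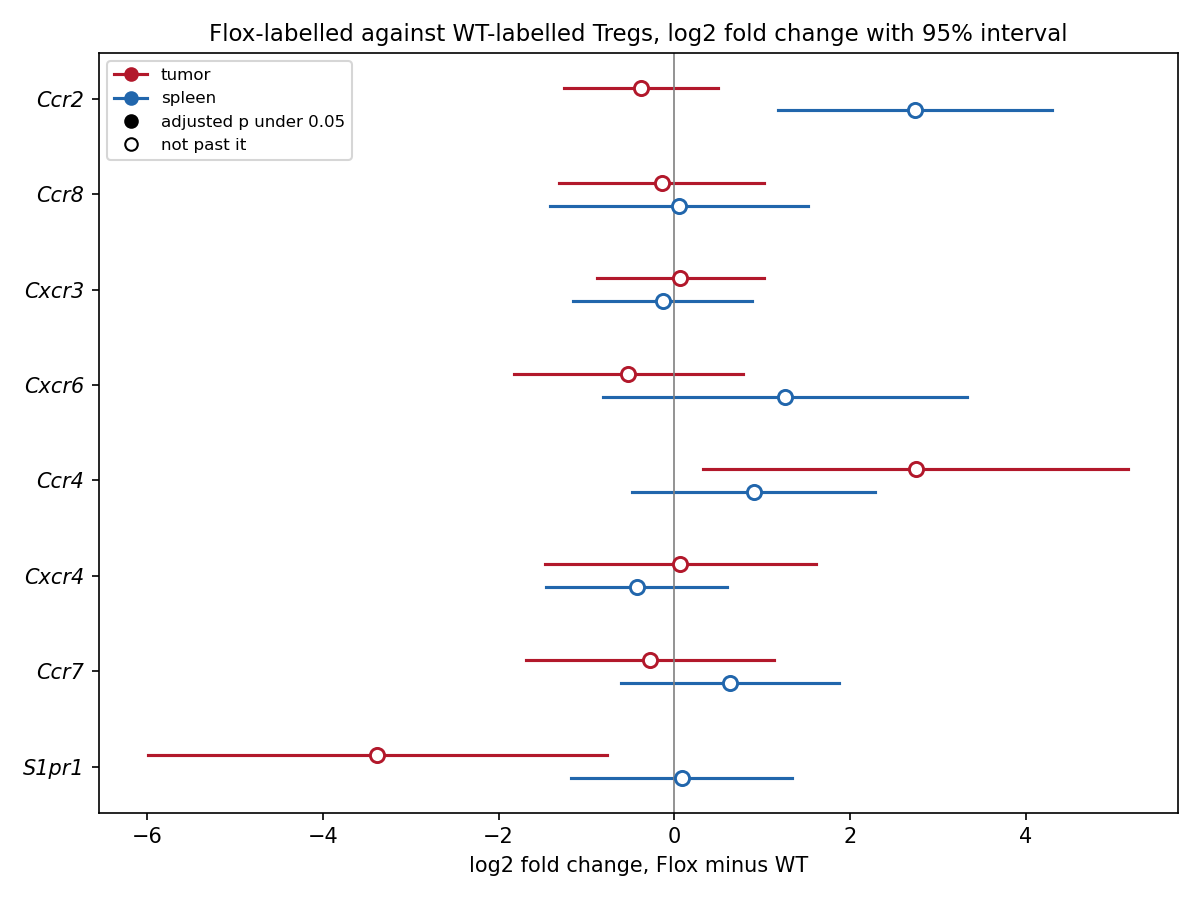
Log2 fold change of each receptor, Flox-labelled minus WT-labelled, with its 95% interval, in tumor (n = 3 and 4) and in spleen (n = 3 and 4). No point passed an adjusted p of 0.05; S1pr1 and Ccr4 in tumor and Ccr2 in spleen have intervals that leave out 0.

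Other chemokine receptors were split between tumor and spleen. Of 15 listed, 8 could be tested over the 14 libraries, 3 rose in tumor and 3 fell, beside 12.3% of all genes tested that rose and 10.2% that fell, and the median log2 difference was 1.88. Ccrl2, an atypical receptor, averaged 43.4 ± 24.5 CPM in tumor Flox-labelled and 33.8 ± 8.56 CPM in tumor WT-labelled libraries, against 2.41 ± 1.48 CPM in spleen Flox-labelled and 2.01 ± 0.810 CPM in spleen WT-labelled libraries. It differed by 4.11 ± 0.43 on the log2 scale (adjusted p = 3.56e-05). Ccr1, a receptor for inflammatory chemokines, differed by 5.57 ± 0.877 (adjusted p = 0.000679). Cx3cr1, the receptor for fractalkine, differed by 4.81 ± 1.37 (adjusted p = 0.0215), and its highest library, at 160.4 CPM, was a tumor Flox-labelled one. The receptors that fell were Cxcr5, which leads cells to B cell follicles, with a log2 difference of -5.40 ± 0.48, the gut-homing Ccr9 with -4.73 ± 0.926 and Ccr6 with -3.82 ± 0.84. B cells also carry Cxcr5 and Ccr6, and the 9 B cell markers summed to 49.5 to 310 CPM in tumor and 445 to 2124 CPM in spleen, with 7 of 8 tested lower in tumor. Pax5 was at 0 in both tumor groups, and the part of B cell RNA in these receptors was not tested.

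Along chromosome 9 receptor genes lie near each other, and they differed in direction. In genome order, Ccr9 (chr9:123767211-123783457) fell, Cxcr6 rose, Xcr1 had a log2 difference of 2.77 (adjusted p = 0.112), and Ccr1 rose. Next came Ccr3, at 0.99 (adjusted p = 0.204), then Ccr2, which rose. Ccr2 had the highest counts of those named, averaging 3330 ± 1348 CPM in tumor and 138 ± 125.5 CPM in spleen (SD, n = 7 each).

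Genes of egress, lymphoid homing and retention moved both ways. Of 14 listed, 12 were tested, 3 rose and 4 fell, beside the same 12.3% and 10.2% of all genes, and the median log2 difference was -0.08. Klf3, a repressor of the Klf family, averaged 37.7 ± 38.4 CPM in tumor Flox-labelled and 4.09 ± 1.45 CPM in tumor WT-labelled libraries, against 919 ± 39.5 CPM in spleen Flox-labelled and 793 ± 315 CPM in spleen WT-labelled libraries. It fell by 6.33 (SE 0.77; adjusted p = 9.78e-05). Itga4, a subunit of the integrins for vessel and gut entry, fell at -3.55 ± 0.54, the gut-homing receptor Gpr15 at -2.41 ± 0.743 and Foxo1, a factor that sustains Klf2, at -1.32 ± 0.332. Itgae, the integrin subunit that anchors T cells to epithelium, rose by 1.92 ± 0.416 and S1pr2 by 1.23 ± 0.356. Cd69, outside the naming rule and added after its values were seen, rose by 2.03 ± 0.687 (adjusted p = 0.0474). Klf2, which marks recirculating cells together with S1pr1, did not pass, at -0.55 ± 0.367.

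Downstream of the receptors all 25 signalling genes and brakes were tested, 3 rose and 4 fell, 7 of 25 beside 22.5% of all genes, and the median log2 difference was -0.14. Rgs1, which shuts off inhibitory G proteins, averaged 170 ± 36.6 CPM in tumor Flox-labelled and 262 ± 47.7 CPM in tumor WT-labelled libraries, against 35.3 ± 11.1 CPM in spleen Flox-labelled and 39.6 ± 9.32 CPM in spleen WT-labelled libraries. It rose by 2.53 ± 0.286 (adjusted p = 5.86e-05). Gnb1, a G protein beta subunit, rose by 0.74 ± 0.136. Rasgrp2, which activates Rap for integrin adhesion, fell at -3.10 ± 0.467, Pik3r5, a regulatory subunit of the G protein-driven PI3 kinase, at -2.28 ± 0.445, Rgs10 at -1.25 ± 0.275 and the receptor kinase Grk6 at -1.24 ± 0.404. The remaining gene that rose, Rgs16, was added after its values were seen.

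**Figure D5:**
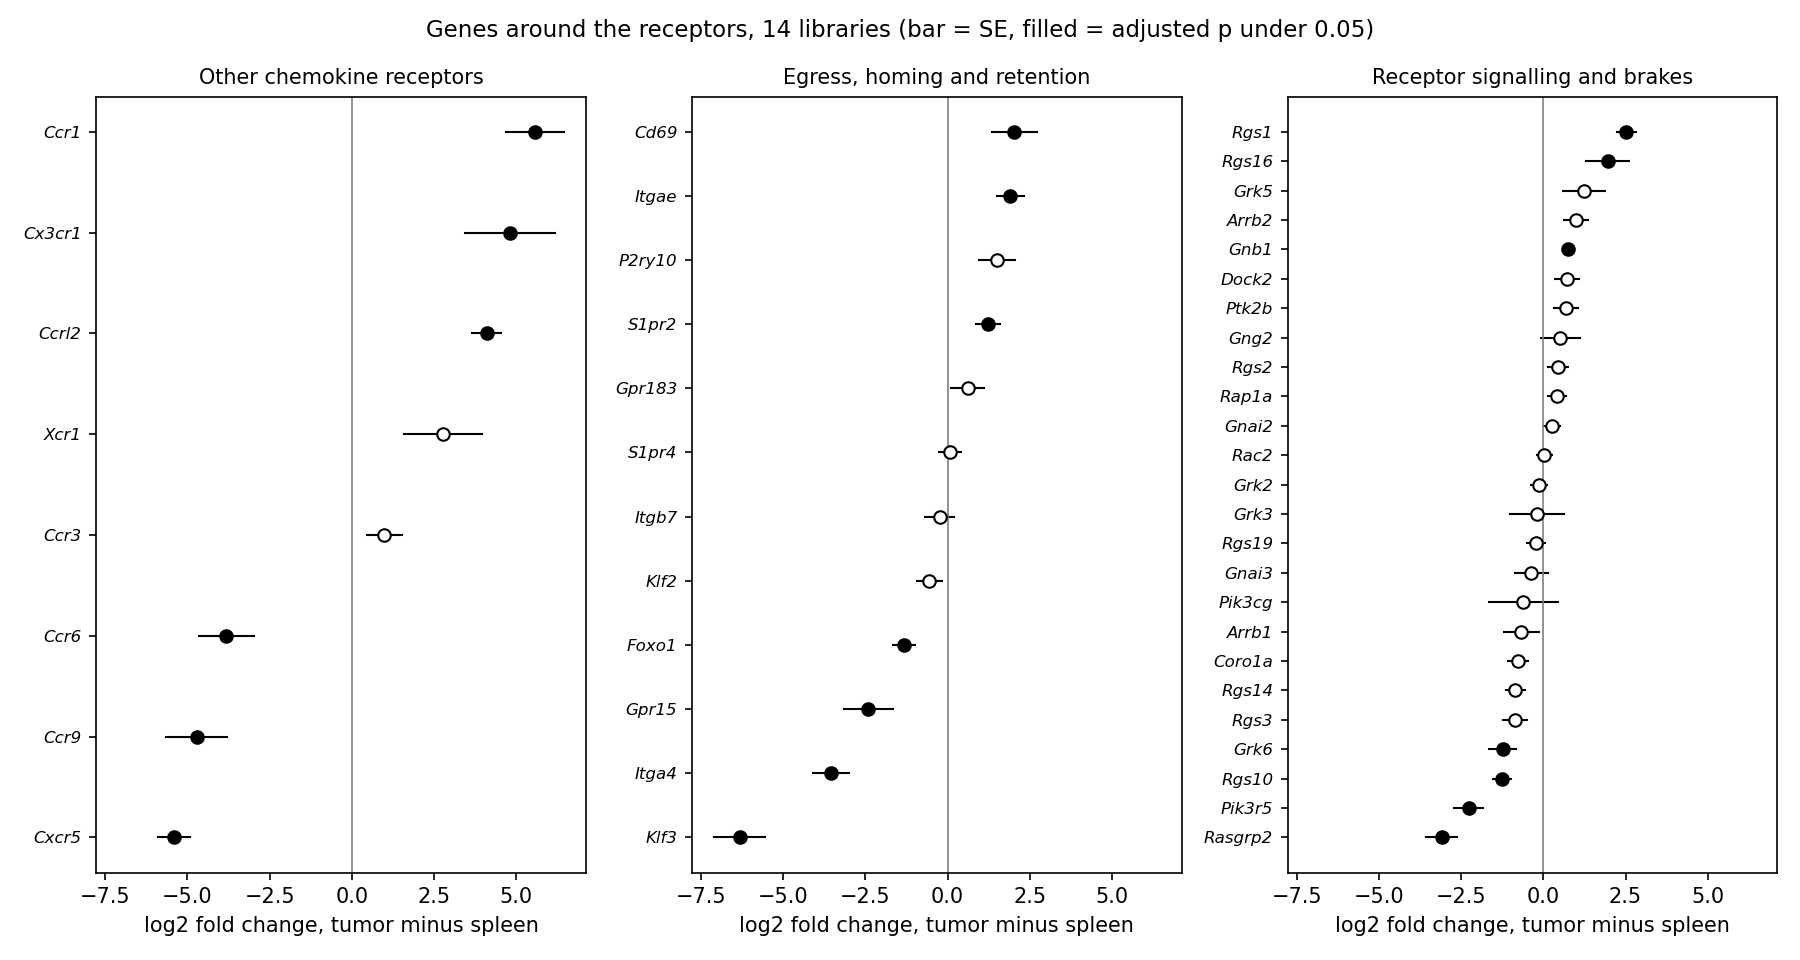
Log2 fold change, tumor minus spleen over 14 libraries, with its SE, for tested genes of 3 lists around the receptors, filled where the adjusted p was under 0.05. The other chemokine receptors run from Ccr1 at 5.57 to Cxcr5 at -5.40, while most signalling genes lie near 0.

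Among 16 factors known to act on trafficking receptors in T cells, all tested, 4 rose and 5 fell, beside 12.3% and 10.2% of all genes, and the median log2 difference was 0.04. Tcf7 and Bach2, factors of resting lymphocytes, fell, at log2 differences of -7.04 ± 0.605 and -6.16 ± 0.501. Id2, Runx3 and Hif1a, linked to effector and hypoxic states, rose by 2.98 ± 0.204, 2.88 ± 0.514 and 2.42 ± 0.339. Foxo1, which is in this list and the egress list, fell as given above. Tbx21, the factor that drives Cxcr3 in T cells, was added after its values were seen. It stood at 63.3, 170.5 and 152 CPM in tumor Flox-labelled and at 13.1, 11.2, 19.6 and 352 CPM in tumor WT-labelled libraries, and Cxcr3 in these 7 libraries was 19.2 to 26.0 CPM. In spleen Tbx21 was at 76.6, 1.37 and 0.67 CPM in the Flox-labelled and at 1.23, 2.73, 10.3 and 3.57 CPM in the WT-labelled libraries. The part of Tbx21 in the receptor levels was not tested.

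By the root mean square difference of centred log2 CPM over the 14 libraries, each receptor was set against 10907 other named genes, and the 2 closest are given. Ccr2, with an SD of 3.07 on this scale, was closest to Litaf (0.93) and Slc15a3 (1.06). Ccr8, with an SD of 1.99, was closest to Hilpda (0.50) and Fam83g (0.51), and Cxcr6, with an SD of 1.60, to Hccs (0.63) and Tnfrsf4 (0.69). The closest to Cxcr3 were Actg1 (0.22) and Hip1r (0.23), to Cxcr4 Sh2d2a (0.39) and Tmem115 (0.44), and to Ccr7 Kremen1 (0.26) and Selplg (0.39), receptors whose own SD was 0.60 to 0.77. S1pr1, with an SD of 1.87, was closest to Mga (0.72) and Fam219b (0.81), and Ccr4, with an SD of 1.31, to Dhps (0.53) and Entpd4 (0.64). These pairs are a description over libraries that share groups.

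Most ligand genes had too few counts for a test in the sorted cells. Of 18 genes listed for the receptors' ligands and sphingosine phosphate handling, 7 had counts enough for a test, 3 rose and 1 fell, beside 12.3% and 10.2% of all genes, and the median log2 difference was 3.01. Ccl2 and Ccl7, ligands of Ccr2, had 1787 and 130 counts in the tumor Flox-labelled libraries and 759 and 63 in the tumor WT-labelled libraries, against 1 and 0 in the spleen Flox-labelled and 2 and 0 in the spleen WT-labelled libraries. Most Ccl2 counts of the tumor Flox-labelled group came from replicate 3, with levels of 13.8, 2.81 and 184 CPM in tumor Flox-labelled libraries and 7.23, 29.7, 26.7 and 31.4 CPM in tumor WT-labelled libraries. Cxcl10, a ligand of Cxcr3, averaged 50.6 ± 28.9 CPM in tumor Flox-labelled and 39.5 ± 10.3 CPM in tumor WT-labelled libraries, against 2.11 ± 0.86 CPM in spleen Flox-labelled and 2.81 ± 0.479 CPM in spleen WT-labelled libraries. It rose by 4.14 ± 0.398 (adjusted p = 1.89e-05). Sphk2, a kinase that makes sphingosine phosphate, fell by 1.45 (SE 0.369). Fibroblasts also make Ccl2 and Ccl7, and 4 of 5 tested fibroblast and endothelial markers rose. Sums over 8 markers were 37.6 to 293 CPM in tumor and 55.4 to 164 CPM in spleen. The spleen sums were nearly all Pecam1, at 85.2 to 109 CPM in Flox-labelled and 54.4 to 164 CPM in WT-labelled libraries. Col3a1 averaged 25.1 CPM in tumor Flox-labelled and 35.1 CPM in tumor WT-labelled libraries, against 0.262 and 0.124 CPM in spleen. Cdh5 was at 0 in both spleen groups, and the part of such cells in the ligand counts was not tested.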

How the data were processed

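A single table, deposited by the authors, holds unnormalized read counts by gene for 14 libraries of sorted Tregs, per the file headers. The submitters' processing notes name the build mm10. The sources used here do not name the aligner, the counting tool or the strand setting. Gene IDs were matched to symbols through RefSeq GRCm38.p6 (25275 of 27179 IDs), and unmatched IDs held 1.25 to 1.95% of a library's counts. Exon lengths came from GENCODE M21. The table had 0 columns outside the mapped libraries. Groups were taken from the sample titles.

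The 8 members and all gene and marker lists, the promoter words and the tests were chosen with earlier results of these data known. Counts were tested with edgeR 4.0.16 in R 4.3.3 (quasi-likelihood F test, TMM scaling, filterByExpr by group, 2-sided, Benjamini-Hochberg adjustment over all genes tested, threshold 0.05), on the libraries of each comparison alone. The SE is the absolute log2 fold change divided by the square root of F, and 95% intervals were built from it. All 8 receptors passed the count filter in all 6 comparisons. CPM are counts scaled to a TMM-corrected library total of 1000000, with log2 CPM at a prior count of 2. At 3 counts a library's CPM lay between 0.234 and 0.586, and intervals cover the spread between libraries. The test was checked on simulated counts.

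Named genes were the 8 members, and from each list those that passed with the smallest p, up to 6, with exceptions named where they occur. Some genes of these lists are not reported here, and the lists' counts leave them out. Alternatives were DESeq2 1.42.0, limma 3.58.1 voom with quality weights per sample, RLE size factors, no count filter, a filter of 5 CPM in 3 libraries, the replicate number as a block, 1 fit of all 14 libraries, each library left out in turn and leaving out both WT-labelled libraries numbered 2. Library totals without a scaling factor were added after seeing the data. No pair of libraries within a group was a duplicate, with a chi-square of 101 to 444 per degree of freedom. Plots were made in Python 3.11.15 with matplotlib 3.10.9.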

Additional observations from a re-analysis of the deposited data

Results flagged for a closer look

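In the tumor WT-labelled group, the only tumor group large enough to check, 3 receptors had a library far from the others. Ccr2 was at 5991 CPM in replicate 4, while the other 3 libraries lay between 2887 and 2946 CPM. Ccr7 was at 99.7 CPM and Cxcr4 at 269.9 CPM in replicate 2, each above the other 3 libraries of that group, which reached 42.6 CPM for Ccr7 and 120.2 CPM for Cxcr4. In all, 16 sets of 4 libraries were checked, the tumor WT-labelled and spleen WT-labelled groups for each of the 8 receptors, and chance marks about 1 in 20. Replicate 2 held reads of the Y-linked Ddx3y, at 127 CPM, beside Xist at 56.7 CPM. The Y-linked Uty, Kdm5d and Eif2s3y did not go with it, at 0.586 CPM or less in every tumor WT-labelled library. In tumor Flox-labelled libraries they were at 30.6 to 299.5, 3.83 to 39.5 and 14.8 to 50.5 CPM.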

How the results depend on the processing

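Ccr2 and Ccr8 passed as higher in tumor over all libraries under 22 of 22 alternatives, Cxcr3 under 21 of 22 and Cxcr6 under 20 of 21, DESeq2 giving it no adjusted p. S1pr1 passed as lower in 4 of 22 and Cxcr4 as higher in 6 of 22. Over the 8 receptors and 6 comparisons, 767 of the alternative values kept their direction and their side of the threshold, 21 newly passed, 14 no longer passed and 33 changed sign; the cause was not tested. In no comparison did a receptor that passed change sign.

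Counts of genes depended on the test. With DESeq2 2910 genes passed for tumor against spleen in Flox-labelled libraries, 2430 in WT-labelled libraries, 266 for Flox against WT in tumor, 124 in spleen and 157 for the difference of contrasts. One fit of all 14 libraries passed 1514 genes in the WT-labelled comparison and 4 for Flox against WT in spleen. Without both WT-labelled libraries numbered 2 the WT-labelled comparison passed 329, and with no count filter the Flox-labelled comparison passed 457. Limma voom passed 1 gene for Flox against WT in tumor, and the 5 CPM filter 1 in spleen. Leaving out each library in turn gave 2357 to 2668 genes over all libraries, 0 to 472 in the Flox-labelled and 373 to 658 in the WT-labelled libraries, and for Flox against WT 0 to 0 in tumor, 0 to 1 in spleen and 0 to 1 for the difference.

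Same-numbered libraries are not stated to be paired, and the correlations of their deviations from group means were -0.03 to 0.05. With the replicate number as a block, 1 gene passed in the Flox-labelled and 173 in the WT-labelled libraries for tumor against spleen. The signs that turned with the block were Ccr4 in Flox-labelled tumor against spleen (-0.68), and for Flox against WT Cxcr4 in tumor (-0.15), Ccr8 in spleen (-0.19) and S1pr1 in spleen (-0.30), with Ccr8 in the difference (0.15). The block changed the calls of Ccr2 and S1pr1 in Flox-labelled (adjusted p = 0.0709 and 0.0863) and of Cxcr6 in WT-labelled libraries (adjusted p = 0.0647), and no other receptor call.

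Voom turned the sign of Ccr4 (-0.40) and Ccr7 (0.001) in Flox-labelled tumor against spleen, of Cxcr4 in tumor (-0.087) and Ccr8 in spleen (-0.17) for Flox against WT, and of Ccr8 in the difference (0.049). Library totals turned S1pr1 in spleen to -0.02, and leaving out both WT-labelled libraries numbered 2 turned Cxcr3 in the difference to -0.043. Leaving out 1 library turned signs in these ranges. For tumor against spleen in Flox-labelled libraries they were -1.86 to 1.12 for Ccr4 and -0.45 to 0.39 for Ccr7. For Flox against WT in tumor they were -0.47 to 0.18 for Ccr7, -0.067 to 0.20 for Cxcr3 and -0.46 to 0.55 for Cxcr4. For Flox against WT in spleen they were -0.57 to 0.53 for Ccr8, -0.29 to 0.078 for Cxcr3, -0.57 to 1.79 for Cxcr6 and -0.38 to 0.31 for S1pr1. For the difference they were -0.61 to 2.38 for Ccr4, -0.66 to 0.44 for Ccr8, -0.001 to 0.37 for Cxcr3, -0.057 to 0.99 for Cxcr4 and -2.29 to 0.067 for Cxcr6.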
